A study of Mus musculus with 6 samples.

Results

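The genes of extracellular ATP and adenosine handling were examined in 2 mouse ovarian cancer cell lines. They are the ecto-nucleotidases Nt5e, Entpd1 and Entpd2, their relative Entpd5, the adenosine-consuming enzymes Ada and Adk, the nucleoside transporter Slc29a1 and the adenosine receptors Adora1, Adora2a and Adora2b. Every probe whose platform annotation gave one of these 10 symbols was taken, on all 6 arrays. This found 16 probes for 7 of the genes, out of 45281 probes and 19057 genes with a probe of their own. No probe carried the symbol of Adora1, Adora2a or Adora2b in the annotation used, so the receptors were not analysed here.

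ATP that leaves a stressed or dying cell acts on P2 receptors and is then trimmed outside the cell. Ectonucleoside diphosphohydrolases such as CD39 (Entpd1) cut ATP and ADP to AMP, and CD73 (Nt5e) cuts AMP to adenosine. Adenosine acts on its own receptors, where it restrains T cells, NK cells and macrophages, until it is taken up by transporters such as Slc29a1 and is deaminated by Ada or phosphorylated by Adk. In tumour ascites, CD73 and CD39 are known as a source of adenosine.

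Parental ID8 is an epithelial ovarian cancer line of C57BL/6 female origin. ID8-M came from parental ID8 cells that grew after intraperitoneal injection into C57BL/6 females aged 8 weeks. Cells were recovered from haemorrhagic ascites 12 weeks after injection, clones were picked, and they were passaged into a line; the labels do not say how many clones or mice it stands for. Neither line had a transgene or a treatment named in the labels, and both were grown in medium with 4% serum, insulin, transferrin and selenite before 3 samples of each were measured.

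All 6 arrays lay on 1 bead chip, parental ID8 in the positions lettered A to C, ID8-M in D to F, so position and line cannot be told apart. Between 16386 and 17186 probes were detected per array (detection p under 0.05). Nothing in the labels says that the 3 samples of a line were separate cultures, so the p-values measure the spread between these samples, which may be technical. The epithelial keratins Krt8, Krt18 and Krt19 were detected on all 6 arrays, whereas the epithelial genes Epcam and Cldn4 were detected on none. Of 12 leukocyte markers with a probe, 9 were detected on no array, among them Ptprc, Csf1r and Adgre1, and 2, Cd14 and Cd3e, on all 6.

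Of the 16 probes, 11 passed the filter for testing, which asked for detection on all 3 arrays of at least 1 line. They covered 5 genes (Nt5e, Entpd5, Ada, Adk and Slc29a1), while Entpd1 and Entpd2 were not tested. Of the 5 genes, 3 were higher in ID8-M by their brightest probe and none was lower (limma, Benjamini-Hochberg adjusted p under 0.05), where 15.4% of all 8933 tested genes were called higher and 15.3% lower. By probe, 6 of 11 were higher and none lower, against 13.6% and 14.8% of all 16221 tested probes. The dimmer probes of Nt5e and Ada, 2 of those 6, passed the filter through ID8-M alone. The median log2 difference over the 5 genes was 0.83, beside −0.03 over all tested genes.

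**Figure D1:**
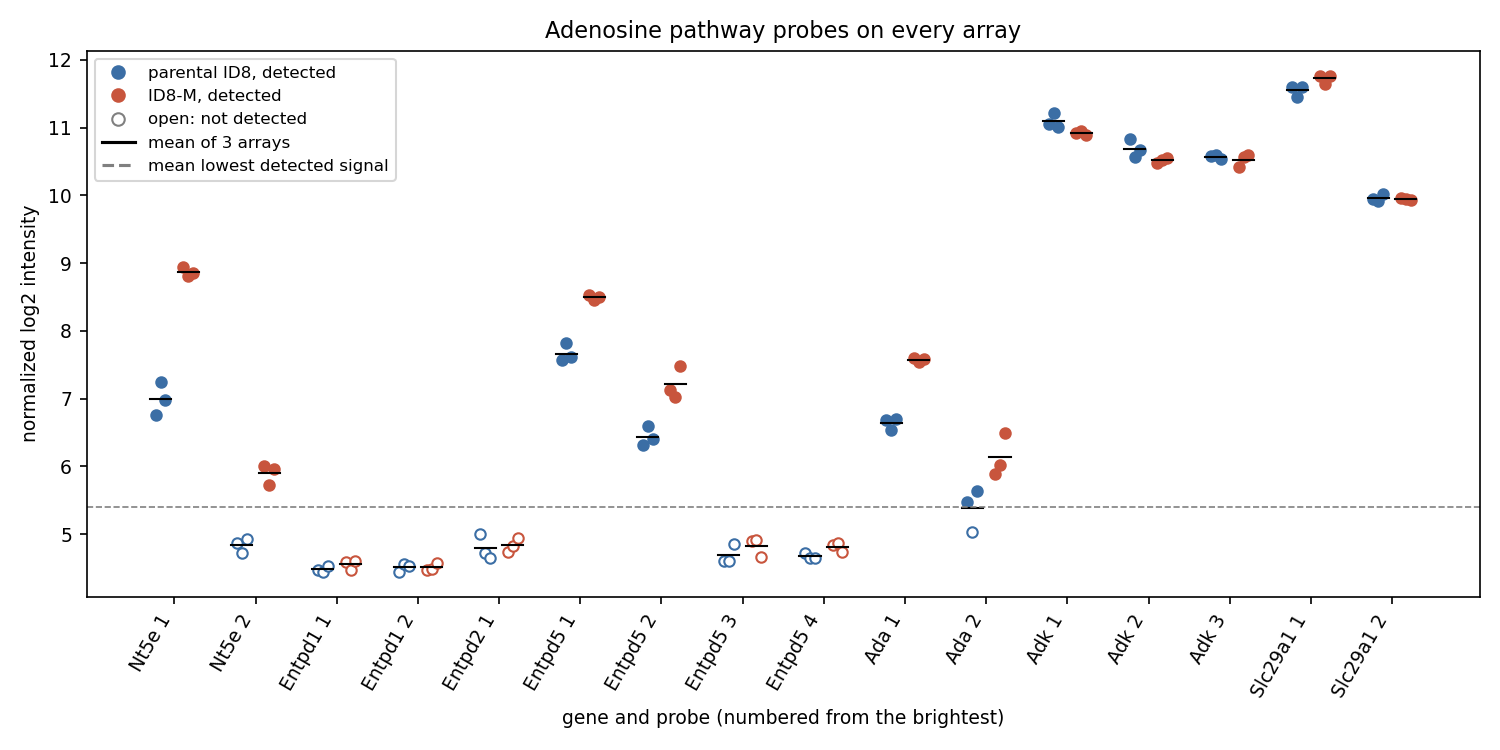
Normalized log2 intensity (vertical axis) of each of the 16 probes (horizontal axis, numbered per gene from the brightest), with 1 point per array, parental ID8 in blue, ID8-M in red, open points where the probe was not detected, and bars at the mean of 3 arrays. The detected probes of Nt5e, Entpd5 and Ada lie higher on every ID8-M array than on any parental array, while both probes of Entpd1 and the probe of Entpd2 lie below the dashed line, the mean over arrays of the lowest detected signal.

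Nt5e, the enzyme that makes adenosine from AMP, gave the largest difference of the 5 genes. Its brighter probe, ILMN_2813830, had scanner intensities of 232.8, 278.8 and 233.8 on the parental arrays and of 636.2, 556.6 and 547.7 on the ID8-M arrays. All 3 ID8-M arrays thus read above all 3 parental arrays. The error over the beads behind each of these values was between 3.45% and 6.20% of it. On the normalized log2 scale, the level rose from 7.00 ± 0.25 in parental ID8 to 8.87 ± 0.07 in ID8-M (SD, n = 3 each). The log2 difference was 1.87 ± 0.13 (SE; limma adjusted p = 1.92e-05), which is 3.66-fold with a 95% interval from 2.99 to 4.48. By size of difference, Nt5e stood at rank 115 of 8933 tested genes, counted from the largest rise.

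The second Nt5e probe, ILMN_2636285, was dimmer. It read 145.6, 139.2 and 141.4 in parental ID8, where it was detected on no array, and 185.8, 168.8 and 174.6 in ID8-M, where it was detected on all 3. Its groups did not overlap, but this probe passed the filter through ID8-M alone, which favours such a placement. It is therefore not independent support for the brighter probe. Since the parental signal is only a bound, ID8-M exceeded it by at least 1.4-fold (measured means of 4.84 and 5.90 on the log2 scale, limma adjusted p = 0.000198). Bounds here are taken to the lowest detected signal of each array in the dimmer line, and hold for the background-corrected scale. Without background subtraction the log2 difference was 1.25 for the brighter probe and 0.35 for the dimmer one, whose parental signal was undetected.

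Markers of cell types were read on the same arrays. Of 7 fibroblast markers, 5 were detected on no array (Pdgfra, Col1a2, Col3a1, Lum and Postn) and 2 on all 6 (Dcn and Col1a1). The summed normalized level of the fibroblast list was 5754 to 6288 on parental arrays and 9235 to 9628 on ID8-M arrays. Of its tested genes Dcn rose, by 0.61 (limma adjusted p = 0.000874), and Col1a1 was not called (−0.10, limma adjusted p = 0.776). Of 7 endothelial markers, 4 were detected on no array (Cdh5, Cldn5, Emcn and Vwf). The summed level of all 7 ran from 331.4 to 345.5 in parental ID8 and from 364.3 to 393.0 in ID8-M. As for the other lists, the sum takes in every probe, detected or not. None of these 7 genes was detected on all 6 arrays, so these sums are mostly background signal. Only Pecam1 was tested. Pecam1, an adhesion molecule of endothelium, showed a level at least 1.47-fold higher in ID8-M arrays than in parental ones (limma adjusted p = 9.65e-05). It was undetected on every parental array and passed the filter through ID8-M alone. The summed level of the epithelial list was 18361 to 20095 in parental ID8 and 29523 to 31164 in ID8-M. In this list 4 of 6 tested genes rose and 1 fell, where 15.4% and 15.3% of all tested genes did. Krt7 rose by 2.13, Krt8 by 0.68, Krt18 by 0.70 and Krt19 by 0.50 on the log2 scale, and Cdh1 fell by 0.61 (limma adjusted p of 0.00524 or less). A dimmer tested Cdh1 probe was not called (−0.16, limma adjusted p = 0.465) and overlapped between lines. The mesothelial list summed to 12112 to 12505 and 20734 to 23041, with 2 of 5 tested genes higher, beside 15.4% of all tested genes. These were Upk3b, by 1.41 (limma adjusted p = 1.43e-05), and Lrrn4, at least 1.36-fold (limma adjusted p = 0.00083). Lrrn4 was undetected in parental ID8 and passed the filter through ID8-M alone. The part of these markers in the Nt5e difference was not tested. In RNA from whole cultures, fewer cells of a type and less RNA per cell cannot be told apart.

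Entpd1, the CD39 enzyme that supplies AMP to CD73, was not detected on any array by either probe. Its probe ILMN_1222379 read 122.0, 119.5 and 122.2 in parental ID8 and 126.8, 117.3 and 124.2 in ID8-M, with detection p-values from 0.582 to 0.988. The other, ILMN_2659560, read between 117.7 and 129.7 over the 6 arrays. These values lie at the level of the negative control beads, so a difference between lines was not detectable at this signal. Entpd2, which prefers ATP over ADP, was likewise not detected by its only probe, with intensities from 129.3 to 151.0 and detection p-values of 0.147 or more. The lines overlapped for all 3 of these probes. On leukocytes, where Entpd1 is best known, 9 of the 12 markers read were undetected, and the summed level of that list was 1076 to 1186 in parental ID8 and 962 to 1018 in ID8-M. This sum takes in the undetected probes. Of its 2 tested genes, Cd14 was called lower (−0.35, limma adjusted p = 0.0243), where 15.3% of all tested genes were. Cd3e was not called (−0.29, limma adjusted p = 0.355).

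Entpd5 encodes a nucleoside diphosphatase that works mainly on UDP and GDP in the endoplasmic reticulum and can be secreted, and which is known for its part in the folding of glycoproteins rather than in the clearance of ATP. It rose in ID8-M by both of its detected probes. Probe ILMN_1215096 read 316.6, 357.3 and 298.3 on the parental arrays and 504.5, 465.4 and 457.0 on the ID8-M arrays. The lowest ID8-M array was above the highest parental one. The log2 difference was 0.83 ± 0.09 (SE, n = 3 each; limma adjusted p = 0.000373), or 1.78-fold. Probe ILMN_3149143 gave 203.8, 222.0 and 195.7 in parental ID8 and 268.2, 246.8 and 285.0 in ID8-M. Its log2 difference of 0.77 ± 0.14 (limma adjusted p = 0.00389) was within the errors of the first. Without background subtraction the log2 differences were 0.58 and 0.38, both still called. The 2 further Entpd5 probes were detected on no array and stayed between 127.5 and 142.1 in intensity. The annotation assigns the 4 probes to 2 Entpd5 transcript records, with 1 detected and 1 undetected probe on each.

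Ada, adenosine deaminase, which turns adenosine into inosine, also rose. Its brighter probe, ILMN_2686132, read 226.7, 218.3 and 213.4 on parental arrays against 325.6, 299.8 and 297.7 on ID8-M arrays. The groups were clearly apart, with normalized log2 levels of 6.64 ± 0.09 and 7.58 ± 0.04 (SD, n = 3 each). The log2 difference was 0.94 ± 0.08 (SE; limma adjusted p = 9.34e-05), or 1.91-fold with a 95% interval from 1.68 to 2.18. Without background subtraction it was 0.50, still called. The dimmer Ada probe, ILMN_1228696, read 166.8, 152.8 and 163.3 in parental ID8, detected on 2 of 3 arrays, and 179.9, 181.3 and 201.0 in ID8-M. The filter was passed through ID8-M alone. This probe too was higher on each ID8-M array, by 0.75 ± 0.19 on the log2 scale (limma adjusted p = 0.0225). That call was lost without parental replicate 2 (0.58, limma adjusted p = 0.0636), without ID8-M replicate 3 (0.57, limma adjusted p = 0.0593) or with every probe tested (limma adjusted p = 0.0722). The call of the brighter probe was kept under all of the alternatives run.

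Adk, adenosine kinase, which returns adenosine to AMP inside the cell, was strongly detected and was not called by any of its 3 probes. Probe ILMN_2986899 read 2345, 2620 and 2132 in parental ID8 and 2100, 2028 and 1887 in ID8-M. The ID8-M arrays lay below the parental ones, but the log2 difference of −0.18 ± 0.08 did not pass (SE, n = 3 each; limma adjusted p = 0.158), and its 95% interval ran from −0.37 to 0.02. Probe ILMN_2702471 gave −0.17 (limma adjusted p = 0.21) and ILMN_2455920 gave −0.05 (limma adjusted p = 0.721), the latter with overlapping groups and a value of 0.01 without ID8-M replicate 1. The lower ends of the 3 intervals were −0.37, −0.38 and −0.24, so a log2 difference below −0.38 lay outside all 3.

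Slc29a1, the equilibrative nucleoside transporter ENT1, which lets adenosine cross the membrane in either direction, was also bright on every array. Its probe ILMN_2888144 read 3344, 3072 and 3167 in parental ID8 and 3657, 3241 and 3441 in ID8-M. On this scale the groups overlapped, and after normalization the ID8-M arrays lay just above, with a log2 difference of 0.17 ± 0.09 (SE, n = 3 each; limma adjusted p = 0.165; 95% interval from −0.02 to 0.37). The other probe, ILMN_2638299, differed by −0.01 (95% interval from −0.19 to 0.16; limma adjusted p = 0.903), and its sign turned with cyclic loess, with the chromosome median removed and without parental replicate 3. Neither probe was called.

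**Figure D2:**
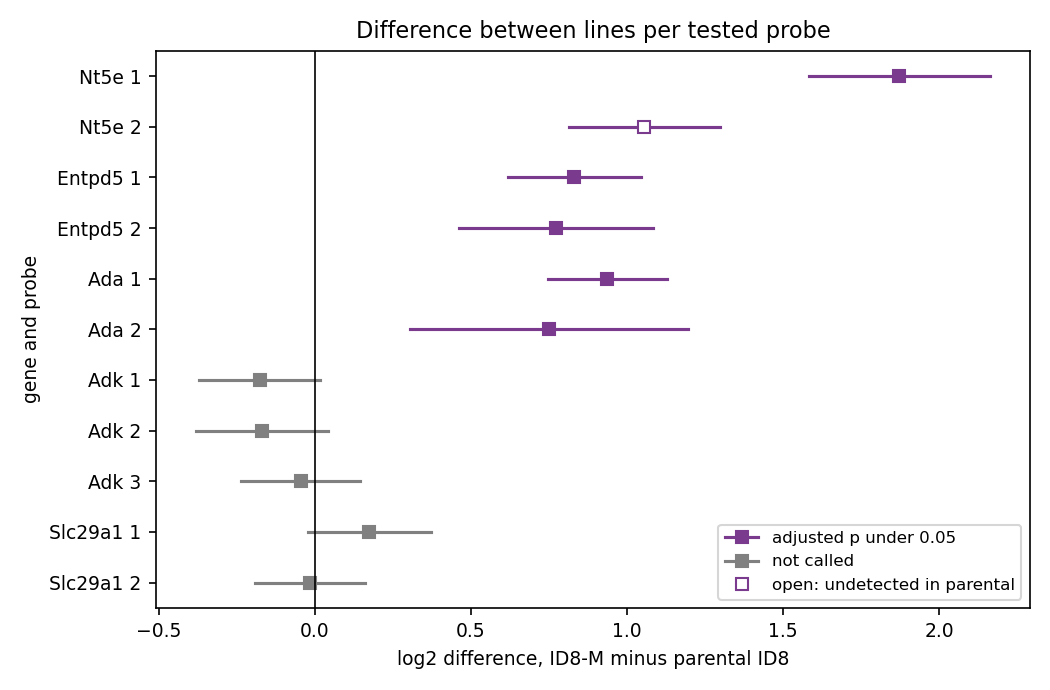
Log2 difference between ID8-M and parental ID8 (horizontal axis) with its 95% interval for each of the 11 tested probes (vertical axis), in purple where the adjusted p was under 0.05 and open where the parental signal is only a bound. The 6 probes of Nt5e, Entpd5 and Ada lie to the right of 0 with intervals clear of it, and the 5 intervals of Adk and Slc29a1 include 0.

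Over the 11 tested probes, the arrays of the 2 lines did not overlap for 7 with ID8-M above and for 2 with ID8-M below, where 20.4% and 24.2% of all tested probes were so placed. Of the 7, the dimmer probes of Nt5e and Ada had passed the filter through ID8-M alone, and probes of 1 gene are not independent. Different probes of a gene pointed the same way for Nt5e, Entpd5, Ada and Adk, and opposite ways for Slc29a1, where neither was called.

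The 3 called genes lie on 3 chromosomes, and their neighbours were taken from the GRCm38.p6 annotation, with 30.8% of all tested genes called as the background. Among the 10 nearest tested genes of Nt5e, 5 on each side, none was called higher and 2 lower, with log2 differences from −0.90 to 0.28. Around Entpd5, 1 of 10 was higher and 1 lower, with a range from −0.32 to 0.80. Around Ada, 1 of 10 was higher and none lower, with a range from −0.21 to 2.74. With the median difference of its chromosome removed, the log2 difference was 1.89 for Nt5e, 0.95 for Entpd5 and 0.94 for Ada, all still called.

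Since these 3 genes rose together, the 250 bases before their annotated starts are shown, from RefSeq on GRCm38.p6. The Nt5e window is chr9:88327359-88327608 on the plus strand, that of Entpd5 chr12:84409030-84409279 on the minus strand and that of Ada chr2:163750240-163750489 on the minus strand. Capitals mark 3 kinds of motif, searched on both strands: the GC box GGGCGG, the core TGACG of the cAMP response element and the hypoxia response cores ACGTG and GCGTG. Matches of different motifs may overlap.
Nt5e: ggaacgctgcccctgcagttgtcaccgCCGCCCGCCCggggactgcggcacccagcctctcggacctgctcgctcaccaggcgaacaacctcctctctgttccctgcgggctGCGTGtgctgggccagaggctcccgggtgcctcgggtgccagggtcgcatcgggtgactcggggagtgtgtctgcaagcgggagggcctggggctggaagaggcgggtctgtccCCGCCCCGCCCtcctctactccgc
Entpd5: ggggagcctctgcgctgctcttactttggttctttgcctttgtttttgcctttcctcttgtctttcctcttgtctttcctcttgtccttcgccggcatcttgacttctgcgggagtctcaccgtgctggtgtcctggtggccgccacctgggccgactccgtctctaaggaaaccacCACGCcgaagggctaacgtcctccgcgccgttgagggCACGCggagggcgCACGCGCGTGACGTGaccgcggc
Ada: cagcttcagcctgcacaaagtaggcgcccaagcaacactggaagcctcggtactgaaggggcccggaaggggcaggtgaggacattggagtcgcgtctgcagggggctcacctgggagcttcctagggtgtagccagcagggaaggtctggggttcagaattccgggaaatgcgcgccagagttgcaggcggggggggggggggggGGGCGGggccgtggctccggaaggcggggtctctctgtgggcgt

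The 3 windows were rich in G and C (72% for Nt5e, 61.6% for Entpd5 and 67.2% for Ada) but held different motifs. Nt5e had 4 GC boxes, in 2 overlapping pairs, and 1 hypoxia core. Entpd5 had 5 hypoxia cores and 1 cAMP core that overlaps the hypoxia cores next to it, and no GC box. Ada had 1 GC box and neither of the others. Of 32851 promoter windows of the same length, 32.7% held a GC box, 17.8% a cAMP core and 38.6% a hypoxia core. No one motif of the 3 was present in all 3 windows.

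Genes with a pattern like that of Nt5e were sought among the 8933 tested genes by the distance between the 6 array values, each gene centred on its own mean. The nearest were A130051J06Rik (distance of 0.09 on the log2 scale), Plxnb3 (0.25), Sh3kbp1 (0.27), Gprc5a (0.32) and Cdc42ep5 (0.32). Their log2 differences lay between 1.72 and 2.00, near the 1.87 of Nt5e. With 3 arrays a line this likeness mostly reflects the size of the difference between lines.

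The other genes of purine handling were read from lists of P2 receptors, further nucleotide hydrolases, nucleoside transporters and intracellular enzymes. Of 60 genes listed, 56 had a probe and 27 were tested. Of these 9 rose and 2 fell, which is 40.7% called beside 30.8% over all tested genes. Of the 27, 5 passed the filter through only 1 line. Their median log2 difference was 0.22, also with the genes given as bounds set at their bound.

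P2 receptors, which sense ATP, ADP, UTP and related nucleotides, were mostly undetected, and 5 of 15 were tested. Of these, 3 rose and 1 fell, where 15.4% and 15.3% of all tested genes did, and 3 of the 5 had passed the filter through only 1 line. P2ry6, a receptor for UDP, had log2 levels of 5.08, 4.76 and 4.86 in parental ID8, undetected there, and 6.50, 6.61 and 6.97 in ID8-M, which is at least 2.43-fold higher by the bound (limma adjusted p = 4.42e-05). P2rx4, an ATP-gated channel, rose from 8.03, 7.75 and 8.19 to 8.72, 8.84 and 8.61, by 0.73 ± 0.13 (SE, n = 3 each; limma adjusted p = 0.00357). Its second tested probe gave 0.56. P2rx7, the ATP-gated channel of inflammasome activation, rose by 0.39 ± 0.09 (limma adjusted p = 0.013). That call was lost without background subtraction (0.14, limma adjusted p = 0.0816), and a second tested P2rx7 probe was not called (0.20, limma adjusted p = 0.263). P2ry14, a receptor for UDP-glucose, fell from 6.08, 6.18 and 6.38 to 5.28, 5.62 and 5.36, by 0.79 ± 0.12 (limma adjusted p = 0.00187), and was detected on 2 of 3 ID8-M arrays. None of these 4 genes, named because they were called, overlapped between lines. ID8-M lay above for 3 and below for 1, where 20.4% and 24.2% of all tested probes were so placed.

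Among further enzymes that hydrolyse nucleotides, 2 of 7 tested rose and none fell, a share of 28.6% called beside 30.8% over all tested genes. Of the 7, 1 gene, Alpl, passed the filter through ID8-M alone. Enpp5, of the ectonucleotide pyrophosphatase family, rose by 0.62 ± 0.11 (SE, n = 3 each; limma adjusted p = 0.00417). Alpl, the alkaline phosphatase that can also make adenosine from AMP, differed by 0.61 ± 0.19 (limma adjusted p = 0.0454), was detected on 1 of 3 parental arrays, with a parental mean of 5.41 at the lowest detected signal, and overlapped between lines. The Alpl call was lost without parental replicate 1 (0.47, limma adjusted p = 0.134), parental replicate 2 (0.55, limma adjusted p = 0.126), ID8-M replicate 1 (0.57, limma adjusted p = 0.113) or ID8-M replicate 2 (0.48, limma adjusted p = 0.137). Of the relatives of Entpd1, Entpd4, Entpd6 and Entpd7 were detected on all 6 arrays and were not called by their brightest probe, with log2 differences of −0.12, −0.25 and 0.18. A dimmer Entpd7 probe was called lower (−0.45, limma adjusted p = 0.0186). In the list of nucleoside transporters, the adenosine receptor Adora3 and the surface peptidase Dpp4, only 1 of 8 was tested, Slc29a3, with a difference of −0.03 (limma adjusted p = 0.901).

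Inside the cell, 4 of 14 tested enzymes of adenosine, AMP and purine base handling rose and 1 fell, a share of 35.7% called, near the 30.8% over all tested genes. Of the 14, 1 gene, Xdh, passed the filter through ID8-M alone. Xdh, xanthine dehydrogenase, which works downstream of Ada towards uric acid, had log2 levels of 4.80, 4.89 and 4.98 in parental ID8, undetected there, and of 6.35, 6.47 and 6.54 in ID8-M, which is at least 2.06-fold higher by the bound (limma adjusted p = 8e-06). Ak1, an adenylate kinase, rose from 6.65, 6.32 and 6.60 to 7.79, 8.01 and 7.98, by 1.40 ± 0.11 (SE, n = 3 each; limma adjusted p = 5.35e-05). Nt5c3, a cytosolic nucleotidase that prefers pyrimidines, rose by 0.37 ± 0.08 (limma adjusted p = 0.011). Aprt, which salvages adenine, fell by 0.46 ± 0.08 (limma adjusted p = 0.00342). The fall of Aprt was lost when the median difference of its chromosome was removed (−0.15, limma adjusted p = 0.196).

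Of 4 tested genes of ATP release, 2 rose and 1 fell, where 15.4% and 15.3% of all tested genes did. Gja1, the connexin 43 channel, rose from 11.71, 11.74 and 11.47 to 12.21, 12.10 and 12.17, by 0.52 ± 0.10 (SE, n = 3 each; limma adjusted p = 0.00538). Panx1, the pannexin channel through which ATP leaves cells, rose by 0.38 ± 0.09 (limma adjusted p = 0.0199) and by 0.54 with its second tested probe. The call of its brighter probe was lost without parental replicate 1 (0.33, limma adjusted p = 0.0697) or ID8-M replicate 2 (0.31, limma adjusted p = 0.0697). Ank, which exports pyrophosphate and ATP, fell by 0.33 ± 0.10 (limma adjusted p = 0.0399), and leaving out any array other than ID8-M replicate 3 ended that call, with an adjusted p of up to 0.128. With the median difference of its chromosome removed, the Ank difference was −0.69 (limma adjusted p = 0.00153).

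Adenosine receptors of the Adora2a and Adora2b kind raise cAMP, and genes known to respond to cAMP moved both ways. Of 10 tested, 3 rose and 2 fell, where 15.4% and 15.3% of all tested genes did, with a median log2 difference of −0.09. Through only 1 line, 2 of the 10 had passed the filter. Fos, an early response transcription factor, had levels of 5.11, 5.35 and 5.44 in parental ID8, detected on 1 array, and 6.52, 6.23 and 6.89 in ID8-M, with a measured difference of 1.25 ± 0.17 (SE, n = 3 each; limma adjusted p = 0.000997). The parental mean of 5.30 lay below the mean lowest detected parental signal of 5.41, so the size of this difference is uncertain. Pde4b, a phosphodiesterase that degrades cAMP, rose by 0.54 ± 0.09 (limma adjusted p = 0.00357). Dusp1, a phosphatase of MAP kinases, fell from 11.01, 11.14 and 11.19 to 10.25, 10.23 and 10.24, by 0.87 ± 0.08 (limma adjusted p = 0.000139). Per1, a clock gene, rose by 0.28 ± 0.09 (limma adjusted p = 0.0433), a call that was lost without any 1 array, with an adjusted p of up to 0.123. Its dimmer tested probe was also called higher (0.43, limma adjusted p = 0.0315), and how that call held under the alternatives is not shown. Nr4a2, an orphan nuclear receptor, was at least 1.16-fold lower (limma adjusted p = 0.0396), undetected in ID8-M, and lost its call in 4 of 6 leave-one-out fits, those without parental replicate 1 or 3 or without ID8-M replicate 2 or 3, with an adjusted p of up to 0.105.

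Values of dim genes depended on the background setting. Without background subtraction, the log2 difference was 0.78 for Ak1, 0.44 for Fos, 0.18 for Pde4b, −0.26 for P2ry14 and 0.20 for Alpl, with these 5 still called. P2ry6 and Xdh, given above as bounds, were also still called, with log2 differences of 0.65 and 0.54. Their bounds hold only on the background-corrected scale and are not met without background subtraction. The same setting ended the calls of the brighter Per1 probe (0.16, limma adjusted p = 0.0625) and of Nr4a2 (−0.15, limma adjusted p = 0.102).

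**Figure D3:**
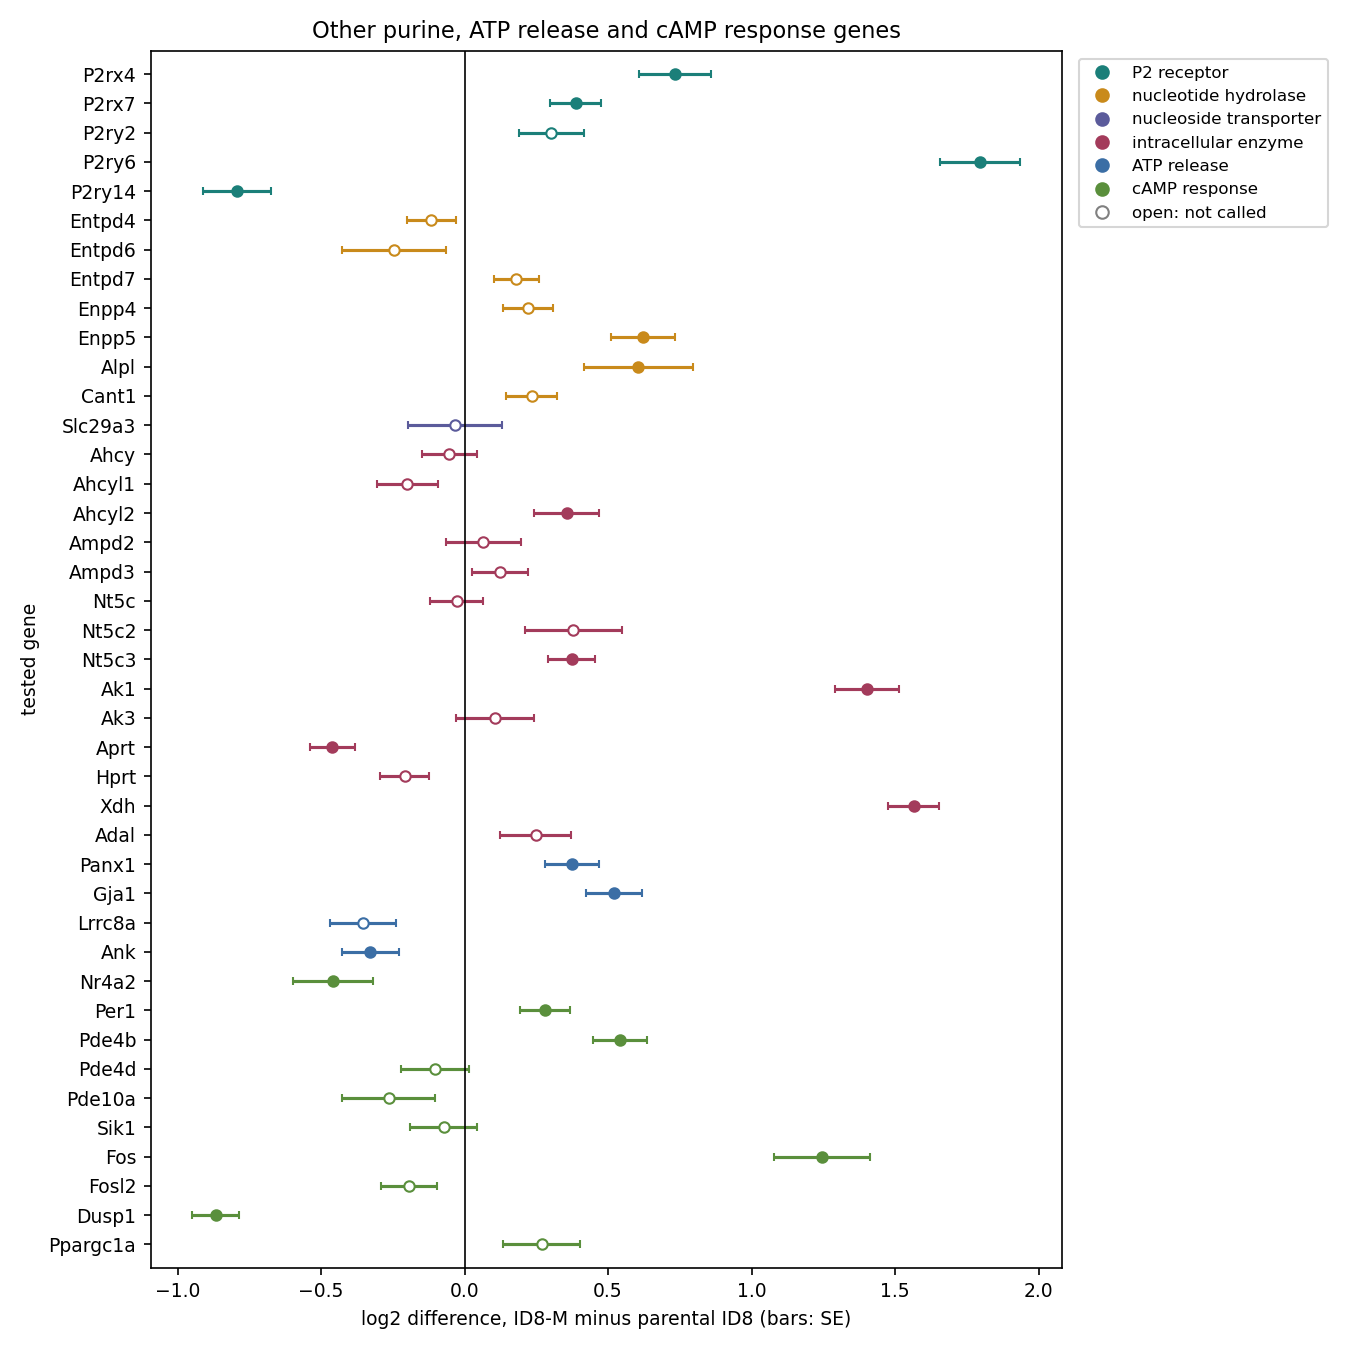
Log2 difference between ID8-M and parental ID8 (horizontal axis) with its standard error for each tested gene of the other lists (vertical axis), coloured by list, filled where the adjusted p was under 0.05 and open otherwise. P2ry6, Xdh, Ak1 and Fos lie farthest to the right and Dusp1 and P2ry14 farthest to the left; the fitted values of P2ry6 and Xdh are against an undetected parental signal, and that of Fos against one detected on 1 of 3 arrays.

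**Figure D4:**
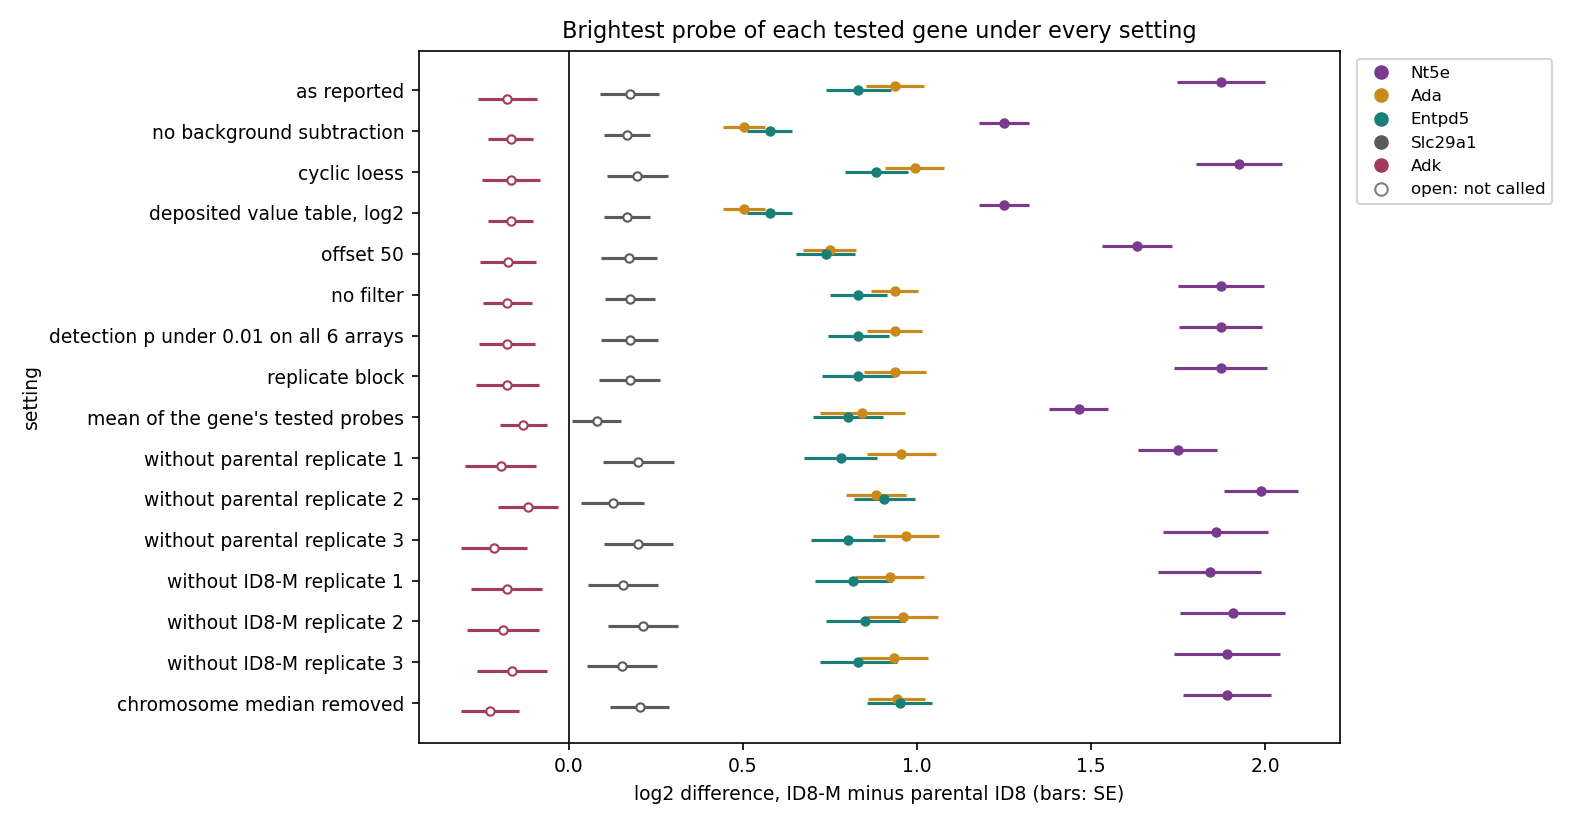
Log2 difference with its standard error (horizontal axis) for the brightest probe of each tested gene under every setting tried (vertical axis; the mean over probes replaces that probe in 1 setting, which for Nt5e takes in an undetected parental signal), filled where called. Nt5e stays between 1.25 and 1.99, Ada and Entpd5 between 0.50 and 0.99, and the points of Adk and Slc29a1 are unfilled, that is not called, in each.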

How the data were processed

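Total RNA was labelled as biotinylated cRNA and hybridised to an Illumina bead chip, per the labels' protocols. The deposited scanner table gives a mean bead intensity on the linear scale, bead number, bead error and detection p-value per probe and array, per the file headers. A second deposited table holds intensities that matched plain quantile normalization within 1.65%. For the scanner software: not given in the sources used here.

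Background correction from the detection p-values, quantile normalization and the log2 transform were done with neqc (limma 3.58.1, R 4.3.3, offset 16). A probe was tested if either line had it detected (p under 0.05) on each of its 3 arrays. Fits were made with limma, with Benjamini-Hochberg adjustment over 16221 probes; a gene is shown by its brightest tested probe. Genes were named from platform annotation, where 34885 probes have 1 symbol, 18 several and 10378 none. Sequences came from RefSeq. The fit step alone was tested on simulated log2 values with known changes.

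Members and lists were chosen with earlier results of these data known. From each other list, up to 3 called rises and 3 called falls are named, and the 5 genes nearest to Nt5e; other genes named, such as Entpd4, Entpd6, Entpd7 and Slc29a3, were chosen after their values were seen. Alternatives were no background subtraction, cyclic loess, the deposited normalized table, offset 50, other filters, probe means, chromosome medians, a replicate block and leaving out each array.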

Additional observations from a re-analysis of the deposited data

How the results depend on the processing

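For the brightest probes of Nt5e, Ada, Entpd5, Adk and Slc29a1, direction and call were the same under all 15 alternatives run, with log2 differences from 1.25 to 1.99 for Nt5e, 0.50 to 0.99 for Ada and 0.58 to 0.95 for Entpd5. The 3 member genes called higher stayed 3 in each. The 15 are not independent checks. The deposited table gave the same log2 differences for these probes as no background subtraction (1.25 for Nt5e in both). Other filters and the replicate block leave the log2 difference unchanged (1.87 for Nt5e) and alter only its error and p-value. Among dimmer probes never called, Adk ILMN_2455920 ran from −0.081 to 0.0085 when 1 array was left out, positive without ID8-M replicate 1. Slc29a1 ILMN_2638299 turned from −0.015 to 0.0025 with cyclic loess and 0.0145 with the chromosome median removed, and ran from −0.038 to 0.0149 when 1 array was left out, positive without parental replicate 3. With detection p under 0.01 on all 6 arrays, which tests fewer genes, the other purine genes gave 5 rises and 1 fall in place of 9 and 2. Over all genes, that setting gave 1137 rises and 1352 falls among 7483 tested, in place of 1378 and 1370 among 8933. How many of the purine genes it tested is not shown. Replicate numbers did not pair the arrays: deviations of same-numbered arrays correlated at 0.04, −0.09 and 0.01. With the replicate as a block, 1215 genes were higher and 1115 lower over all genes, and the count of member genes called stayed at 3 higher, while the calls of Alpl, Ank, Per1 and Nr4a2 were lost; not every array correlated best with its own number. Signals near background, as for Entpd1, Entpd2 and the parental Nt5e probe ILMN_2636285, limit what these arrays can show.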
